A study of Mus musculus with 12 samples.

Results

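The 46 genes described here encode the machinery that copies DNA and the enzymes that supply it with deoxynucleotides. They were chosen by name from the 54532 genes of the deposited count table, with earlier results of these data known. The counts below therefore describe the list and do not test it. All 46 were found there, and all 46 passed the filter on low counts that left 14473 tested genes. RNA was sequenced from primary B lymphocytes of mice in 12 libraries, 3 in each of 4 groups. The groups are B cells labelled Tmem173-/- and exposed for 12 hours to 3'3'-cGAMP, B cells labelled Tmem173-/- kept as controls, wild type B cells given the same exposure, and wild type B cells kept as controls. Tmem173 encodes STING, a receptor for cyclic dinucleotides on the endoplasmic reticulum, and 3'3'-cGAMP is a bacterial cyclic dinucleotide that activates it. The cells came from 3 mice of each genotype, the dose, the mouse strain and the kind of Tmem173 allele are not given in the sources used here, and nothing states which mouse gave which library. The p-values below therefore measure the spread between libraries, some of which may be technical.

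Replication starts where the origin recognition complex (ORC) binds DNA. Cdc6 and Cdt1 then load the ring-shaped helicase of Mcm2 to Mcm7 onto the origin, and Cdc45, the GINS complex and Mcm10 turn that helicase on when the cell enters S phase. Polymerase alpha with its primase lays down primers, polymerases delta and epsilon extend them on the sliding clamp Pcna, which the Rfc complex loads, and RPA coats the single strands. Many of these genes are known targets of E2F transcription factors, which are held back by RB family proteins in resting cells. Mature B cells that have not met an antigen mostly rest outside the cell cycle.

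Libraries held 26490593 to 31417833 counts. Tmem173 RNA was at 82.8, 101 and 95.8 CPM (counts scaled to library size by TMM) in Tmem173-/- cGAMP libraries, 80.2, 94.7 and 103 CPM in Tmem173-/- control, 44.6, 49.2 and 47.97 CPM in wild type cGAMP and 91.1, 102 and 92.6 CPM in wild type control. It fell by 1.01 on the log2 scale in wild type cGAMP libraries (edgeR adjusted p = 8.07e-07) and did not pass between Tmem173-/- control and wild type control libraries (log2 fold change -0.04, edgeR adjusted p = 0.935), so every statement on genotype rests on the labels. The deposited column names mark the Tmem173-/- libraries with the prefix GT, and whether this allele lowers the RNA is not given in the sources used here, so the RNA level does not check the genotype. The 8 B cell markers, none at 0 throughout, summed to 5233 to 6317 CPM in Tmem173-/- cGAMP, 5327 to 6068 in Tmem173-/- control, 3511 to 4279 in wild type cGAMP and 5052 to 6098 in wild type control libraries. Replicate 1 of both wild type groups was the highest on markers of T cells, neutrophils and NK cells. The 8 T cell markers, none at 0 throughout, summed to 27.9 CPM in wild type cGAMP replicate 1 and 14.7 CPM in wild type control replicate 1, against at most 6.79 CPM in any other library. The 6 neutrophil markers, with Ly6g at 0 in every library, summed to 23.6 and 9.11 CPM in those libraries, against at most 1.77 CPM elsewhere. For the 6 NK cell markers, of which 4 were at 0 in every Tmem173-/- cGAMP library and 3 in every Tmem173-/- control library, the sums were 2.62 and 0.783 CPM, against at most 0.457 CPM elsewhere. The 6 monocyte and macrophage markers summed to 41.7 to 57.2 CPM in Tmem173-/- cGAMP, 44.9 to 54.6 in Tmem173-/- control, 6.44 to 14.2 in wild type cGAMP and 30.8 to 42.6 in wild type control. The 5 dendritic cell markers summed to 19.5 to 24.4, 17.5 to 20.9, 36.5 to 44.8 and 15.0 to 20.0 CPM in the same groups, and the 6 plasma cell markers to 986 to 1006, 955 to 1048, 839 to 925 and 986 to 1080.1 CPM. These sums hide single markers. In wild type cells 2 of the 8 B cell markers rose and 6 fell (edgeR adjusted p under 0.05). Of 4 tested dendritic cell markers 2 rose, and 2 of 5 monocyte and macrophage and 4 of 6 plasma cell markers fell. The others on these 3 lists did not pass. Over all tested genes 22.4% were higher and 25.4% lower. In bulk RNA, fewer cells of a type and less RNA per cell cannot be told apart, and the part of these cells in the results below was not tested.

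In wild type B cells most of the replication machinery rose after cGAMP. Of the 46 genes, 36 were higher (78.3%) and 1, Rpa1, was lower in wild type cGAMP than in wild type control libraries at an edgeR adjusted p under 0.05, where 22.4% of all tested genes were higher, 25.4% lower and 47.8% either. The median log2 fold change was 0.50 over the 46 genes and -0.00 over all tested genes. At least 2-fold higher were 10 of the 46, against 6.76% of all tested genes. All 3 cGAMP libraries lay above all 3 controls for 35 genes and below them for 1, where 25.9% of all tested genes lay above and 28.4% below. Without both wild type replicate 1 libraries, 32 of the 46 were higher and 1 lower. Mcm6, Pola1, Pola2, Rfc3, Rfc4, Rfc5, Rpa2 and Chaf1b each missed the threshold when at least 1 single library was left out. The rise was uneven. Mcm10, Cdc6, Orc1, Rrm2 and Cdc45 changed by more than 3-fold, while Rrm1, Rfc1, Rpa3 and Gins4 had fitted log2 fold changes between -0.06 and 0.03.

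**Figure D1:**
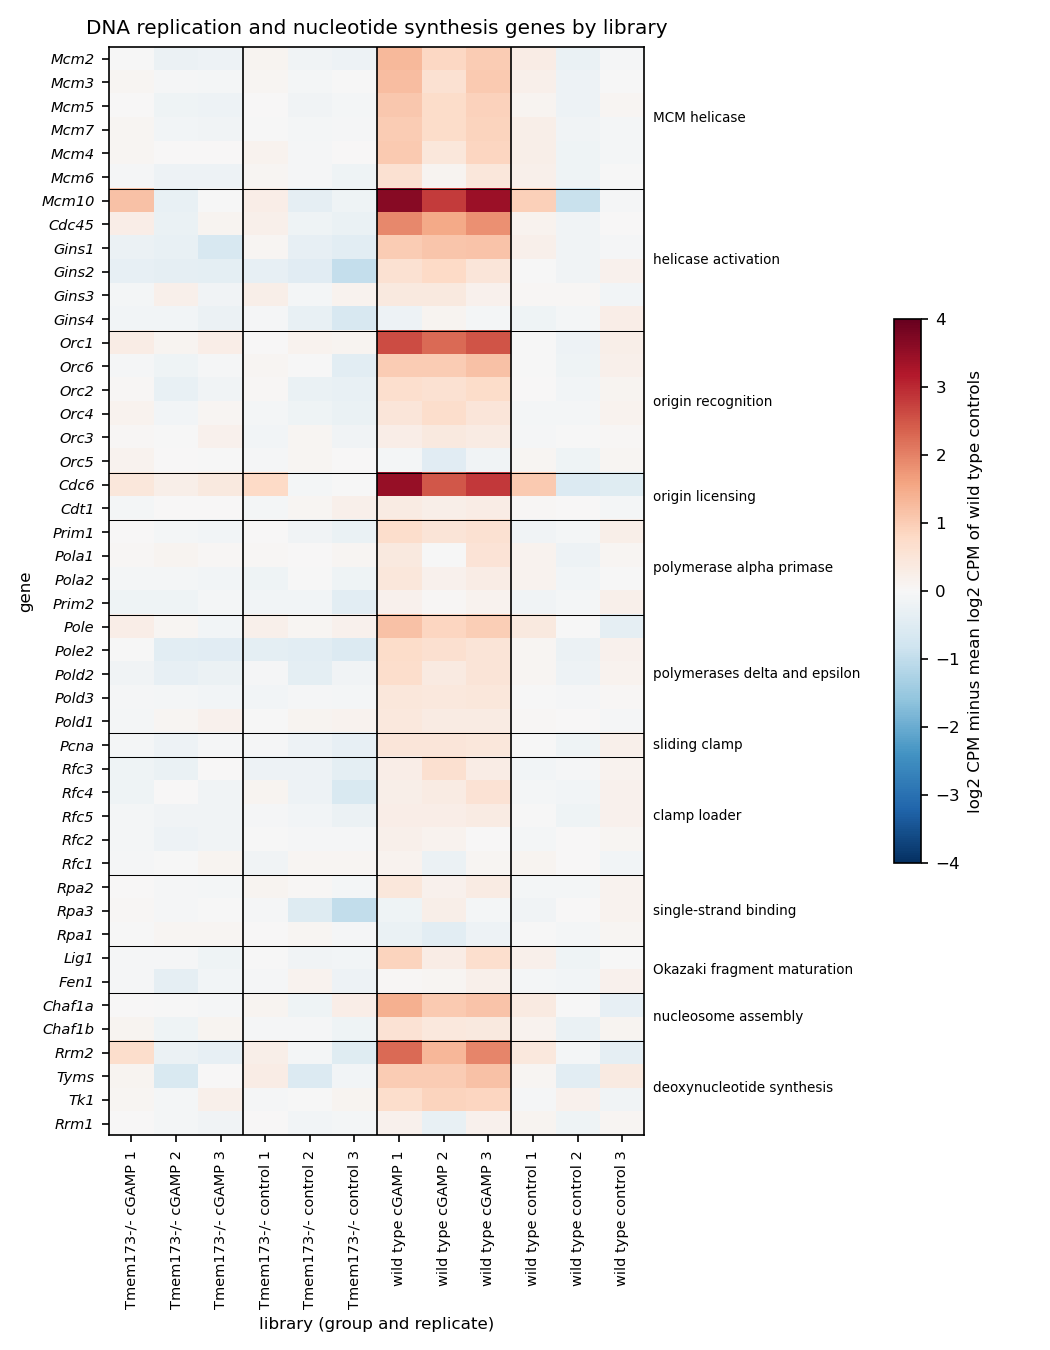
Heat map of the 46 genes (rows, grouped by role) in the 12 libraries (columns), coloured by log2 CPM minus the mean of the wild type controls. The 3 wild type cGAMP columns are the ones with raised values for most rows, strongest for Mcm10, Cdc6 and Orc1, and the Rpa1 row is lower there.

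The origin recognition complex changed unevenly. Orc1 (ENSMUSG00000028587, chromosome 4, 108579423 to 108614833, plus strand; GRCm38), the subunit with ATPase activity that works together with Cdc6, was at 2.49, 2.16 and 2.41 CPM in Tmem173-/- cGAMP and 2.03, 2.25 and 2.19 CPM in Tmem173-/- control libraries, and at 12.4, 9.77 and 11.6 CPM in wild type cGAMP, against 1.99, 1.76 and 2.37 CPM in wild type control. The 3 wild type cGAMP libraries stood well above all the others, which lay close together. Wild type cells had a log2 fold change of 2.47 (SE 0.18, edgeR adjusted p = 3.08e-08). Orc6 (ENSMUSG00000031697, chromosome 8, 85299632 to 85308278, plus strand), a subunit needed for loading the helicase, was at 16.4, 15.2 and 16.5 CPM in Tmem173-/- cGAMP and 18.1, 16.8 and 12.7 CPM in Tmem173-/- control, and at 34.3, 34.1 and 38.2 CPM in wild type cGAMP, against 16.7, 15.1 and 19.6 CPM in wild type control. Again no other library reached the wild type cGAMP values (log2 fold change 1.05, SE 0.13, edgeR adjusted p = 6.52e-06). Orc2, Orc4 and Orc3, subunits of the complex's core, rose less, by 0.68, 0.55 and 0.32 on the log2 scale. Orc5 missed the threshold (log2 fold change -0.21, edgeR adjusted p = 0.143), so 5 of 6 ORC genes were higher.

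Both genes of helicase loading rose, to different extents. Cdc6 (ENSMUSG00000017499, chromosome 11, 98907801 to 98923940, plus strand), an ATPase that brings the helicase to ORC, was at 1.71, 1.46 and 1.63 CPM in Tmem173-/- cGAMP and 2.16, 1.18 and 1.24 CPM in Tmem173-/- control, and at 14.00, 6.92 and 8.79 CPM in wild type cGAMP, against 2.60, 0.844 and 0.883 CPM in wild type control. Every wild type cGAMP library was higher than all others, although replicate 1 of the wild type controls was well above the other controls of that group. The log2 fold change of 2.78 (SE 0.39, edgeR adjusted p = 3.67e-05) became 3.51 without wild type control replicate 1 and 2.44 without wild type cGAMP replicate 1. Cdt1 (ENSMUSG00000006585, chromosome 8, 122568015 to 122573554, plus strand), which escorts the helicase, was at 75.96, 82.3 and 82.3 CPM in Tmem173-/- cGAMP and 77.4, 85.7 and 92.3 CPM in Tmem173-/- control, and at 101, 95.8 and 99.5 CPM in wild type cGAMP, against 83.9, 81.9 and 76.8 CPM in wild type control. The groups of wild type libraries did not overlap, yet the change was small (log2 fold change 0.29, SE 0.08, edgeR adjusted p = 0.00778).

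All 6 helicase subunits rose, with a median log2 fold change of 0.89. Mcm2 (ENSMUSG00000002870, chromosome 6, 88883474 to 88898780, minus strand) was at 80.3, 68.5 and 69.7 CPM in Tmem173-/- cGAMP and 87.6, 73.6 and 71.1 CPM in Tmem173-/- control, and at 201, 144 and 163 CPM in wild type cGAMP, against 99.4, 67.7 and 79.1 CPM in wild type control. The lowest wild type cGAMP library was still above the highest of the others (log2 fold change 1.04, SE 0.14, edgeR adjusted p = 2.7e-05). Mcm3 (ENSMUSG00000041859, chromosome 1, 20802968 to 20820312, minus strand) was at 105, 95.7 and 93.5 CPM in Tmem173-/- cGAMP and 106, 94.5 and 97.6 CPM in Tmem173-/- control, and at 233, 153 and 204 CPM in wild type cGAMP, against 115, 87.3 and 97.7 CPM in wild type control. It showed the same separation of groups (log2 fold change 0.97, SE 0.13, edgeR adjusted p = 2.22e-05). Mcm5, Mcm7, Mcm4 and Mcm6 rose by 0.91, 0.88, 0.80 and 0.41 on the log2 scale. Mcm6 was the exception to the separation, with 299.9, 212 and 268 CPM in wild type cGAMP and 223, 173 and 193 CPM in wild type control, and did not pass without wild type cGAMP replicate 1. Within each of the 4 groups, the highest and lowest of the subunits differed by 1.84- to 2.09-fold in FPKM, the deposited unit that is scaled to a length for each gene.

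Of the 6 genes that turn the helicase on, 4 rose. Mcm10 (ENSMUSG00000026669, chromosome 2, 4989714 to 5012791, minus strand), a scaffold that helps start unwinding, had the largest change of the 46. It was at 3.42, 1.23 and 1.49 CPM in Tmem173-/- cGAMP and 1.80, 1.18 and 1.35 CPM in Tmem173-/- control, and at 18.9, 10.4 and 16.05 CPM in wild type cGAMP, against 2.92, 0.809 and 1.45 CPM in wild type control. Levels in the other groups were low, with replicate 1 of each group its highest. The log2 fold change of 3.13 (SE 0.43, edgeR adjusted p = 6.53e-05) became 3.74 without wild type control replicate 1. Cdc45 (ENSMUSG00000000028, chromosome 16, 18780447 to 18811987, minus strand), a fixed part of the active helicase, was at 6.03, 4.23 and 5.47 CPM in Tmem173-/- cGAMP and 5.85, 4.47 and 4.16 CPM in Tmem173-/- control, and at 19.1, 14.3 and 17.97 CPM in wild type cGAMP, against 5.52, 4.61 and 5.05 CPM in wild type control. All 9 other libraries lay in a narrow band below the wild type cGAMP ones (log2 fold change 1.76, SE 0.17, edgeR adjusted p = 7.24e-07). GINS is the other fixed part. Its gene Gins1 (ENSMUSG00000027454, chromosome 2, 150905400 to 150931280, plus strand) was at 6.32, 6.15 and 4.82 CPM in Tmem173-/- cGAMP and 7.97, 5.98 and 5.54 CPM in Tmem173-/- control, and at 15.3, 16.1 and 16.3 CPM in wild type cGAMP, against 8.62, 6.75 and 7.21 CPM in wild type control. The wild type cGAMP libraries lay close together and stood apart (log2 fold change 1.08, SE 0.16, edgeR adjusted p = 3.86e-05). Gins2 rose by 0.63, whereas Gins3 (log2 fold change 0.33, edgeR adjusted p = 0.0762) and Gins4 (-0.06, edgeR adjusted p = 0.734) did not pass. Gins3 did not overlap between the wild type groups and passed with library totals alone as the scaling and on log2 FPKM.

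**Figure D2:**
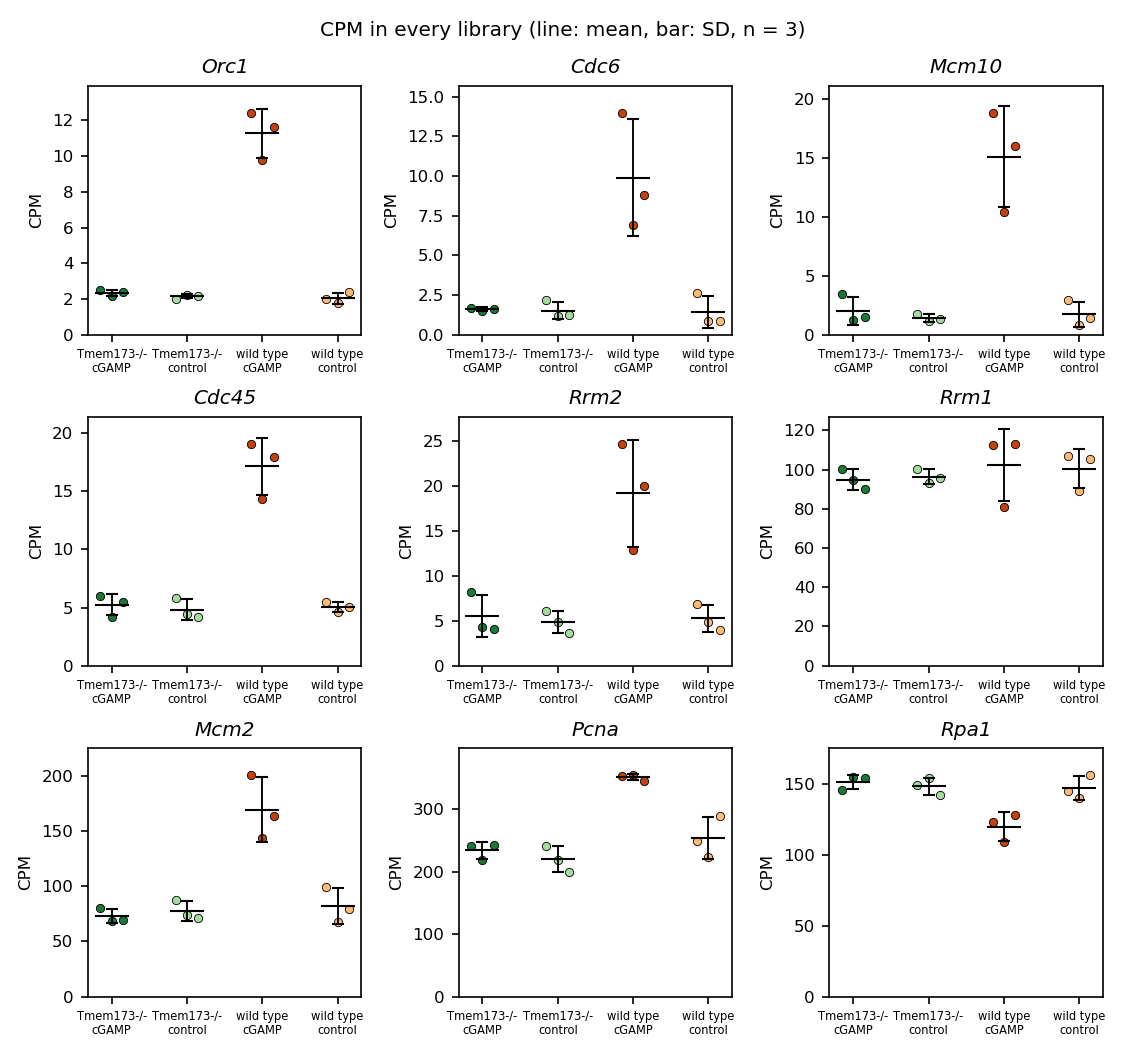
Expression in CPM (vertical axis, from 0) of 9 of the genes in every library, with groups along the horizontal axis, a point per library, a line at each group mean and bars of 1 SD (n = 3). Wild type cGAMP libraries are highest for Orc1, Cdc6, Mcm10, Cdc45, Rrm2, Mcm2 and Pcna, overlap the others for Rrm1 and are lowest for Rpa1.

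Among the polymerases, all 5 subunit genes of delta and epsilon rose and 3 of the 4 of polymerase alpha and primase did. Pole (ENSMUSG00000007080, chromosome 5, 110286306 to 110337474, plus strand), the catalytic subunit of the leading-strand polymerase epsilon, was at 26.8, 23.9 and 20.98 CPM in Tmem173-/- cGAMP and 25.8, 23.5 and 25.3 CPM in Tmem173-/- control, and at 50.2, 40.7 and 43.8 CPM in wild type cGAMP, against 29.1, 22.3 and 17.3 CPM in wild type control. The wild type cGAMP libraries were above all others, and the wild type controls were spread widely (log2 fold change 0.97, SE 0.15, edgeR adjusted p = 7.54e-05). The accessory subunit Pole2 rose by 0.63 on the log2 scale. Of polymerase delta, which copies the lagging strand, the catalytic subunit Pold1 rose by 0.36 and the accessory subunits Pold2 and Pold3 by 0.53 and 0.44 on the log2 scale. The primase catalytic subunit Prim1 rose by 0.59, the polymerase alpha catalytic subunit Pola1 by 0.32 and its partner Pola2 by 0.30 on the log2 scale. Pola1 was close to the threshold (edgeR adjusted p = 0.0487) and did not pass without both wild type replicate 1 libraries. The primase large subunit Prim2 did not pass (0.11, edgeR adjusted p = 0.477).

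Pcna (ENSMUSG00000027342, chromosome 2, 132249162 to 132253314, minus strand) was at 241, 218 and 243 CPM in Tmem173-/- cGAMP and 242, 218 and 199.8 CPM in Tmem173-/- control, and at 353, 356 and 346 CPM in wild type cGAMP, against 249, 224 and 289 CPM in wild type control. Its change was below those of Orc1, Cdc6 and Orc6 and above those of Orc3 and Cdt1. The wild type groups did not overlap (log2 fold change 0.47, SE 0.10, edgeR adjusted p = 0.000977). In FPKM it was the most abundant of the 46 in every group, at 399 in wild type cGAMP and 273 in wild type control libraries. Of its 5 loader genes, Rfc3, Rfc4 and Rfc5 rose by 0.40, 0.38 and 0.28 on the log2 scale. Rfc2 (0.13) and the large subunit Rfc1 (0.00) did not pass. Rfc4 (edgeR adjusted p = 0.0449) and Rfc5 (edgeR adjusted p = 0.0217) did not pass without both wild type replicate 1 libraries.

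Of the 3 RPA genes, 1 fell, 1 rose and 1 did not pass. Rpa1 (ENSMUSG00000000751, chromosome 11, 75298166 to 75348324, minus strand), the large subunit with the main DNA-binding domains, was at 146, 154 and 154 CPM in Tmem173-/- cGAMP and 149, 154 and 142 CPM in Tmem173-/- control, and at 123, 109 and 128 CPM in wild type cGAMP, against 145, 139.7 and 156 CPM in wild type control. Here the wild type cGAMP libraries were below all 9 others, and Rpa1 fell by 0.30 on the log2 scale (SE 0.08, edgeR adjusted p = 0.00675). Rpa2, the subunit phosphorylated when replication is stressed, rose by 0.32 on the log2 scale, and did not pass without both wild type replicate 1 libraries. Rpa3, the small subunit, had a log2 fold change of 0.00 (SE 0.18). Lig1, the ligase that seals the fragments of the lagging strand, rose by 0.63 on the log2 scale, and Fen1, the nuclease that trims their ends, did not pass (0.11, edgeR adjusted p = 0.565).

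Both large subunits of CAF-1, the chaperone that places histones on new DNA, rose. Chaf1a (ENSMUSG00000002835, chromosome 17, 56040439 to 56072289, plus strand) was at 10.8, 10.7 and 10.5 CPM in Tmem173-/- cGAMP and 11.7, 9.60 and 12.9 CPM in Tmem173-/- control, and at 28.7, 22.3 and 23.9 CPM in wild type cGAMP, against 13.8, 10.6 and 8.48 CPM in wild type control. No other library reached the wild type cGAMP values (log2 fold change 1.19, SE 0.16, edgeR adjusted p = 1.69e-05). Chaf1b rose by 0.45 on the log2 scale.

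Of the 4 genes of deoxynucleotide synthesis, 3 rose. Ribonucleotide reductase turns ribonucleotides into deoxynucleotides and needs a large subunit, Rrm1, and a small one, Rrm2. Rrm2 (ENSMUSG00000020649, chromosome 12, 24708241 to 24714146, plus strand) was at 8.26, 4.33 and 4.07 CPM in Tmem173-/- cGAMP and 6.08, 4.83 and 3.68 CPM in Tmem173-/- control, and at 24.7, 12.9 and 20.03 CPM in wild type cGAMP, against 6.91, 4.89 and 3.99 CPM in wild type control. The wild type cGAMP libraries were the highest and had the widest range in CPM, though not as a ratio (log2 fold change 1.87, SE 0.31, edgeR adjusted p = 0.000267). Rrm1 (ENSMUSG00000030978, chromosome 7, 102441695 to 102469771, plus strand) was at 100.3, 94.5 and 90.03 CPM in Tmem173-/- cGAMP and 100.5, 93.2 and 95.5 CPM in Tmem173-/- control, and at 113, 81.1 and 113 CPM in wild type cGAMP, against 107, 88.9 and 105 CPM in wild type control. All 4 groups overlapped (log2 fold change 0.03, SE 0.11, edgeR adjusted p = 0.864, 95% interval -0.21 to 0.27). In FPKM, Rrm1 over Rrm2 was 7.47 to 13.6 in Tmem173-/- cGAMP, 10.2 to 15.9 in Tmem173-/- control, 2.80 to 3.87 in wild type cGAMP and 9.53 to 16.2 in wild type control libraries. Tyms (ENSMUSG00000025747, chromosome 5, 30058202 to 30073617, minus strand), thymidylate synthase, was at 6.55, 3.96 and 6.08 CPM in Tmem173-/- cGAMP and 7.39, 4.10 and 5.62 CPM in Tmem173-/- control, and at 12.2, 12.3 and 13.7 CPM in wild type cGAMP, against 6.34, 4.47 and 7.81 CPM in wild type control. Its wild type cGAMP libraries lay together above all others (log2 fold change 1.04, SE 0.23, edgeR adjusted p = 0.00163). Tk1, the cytosolic thymidine kinase of the salvage route, rose by 0.81 on the log2 scale.

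In the B cells labelled Tmem173-/- none of the 46 genes passed. With edgeR, 0 of 46 were higher or lower in Tmem173-/- cGAMP than in Tmem173-/- control libraries, where 0% of all tested genes were called. At an unadjusted p under 0.05 edgeR gave 1 of the 46, Rpa3, and 203 (1.40%) of all tested genes, and DESeq2 and limma-voom called none of the 46. Rpa3 was at 36.01, 34.1 and 34.8 CPM in Tmem173-/- cGAMP and 33.99, 24.6 and 17.6 CPM in Tmem173-/- control, and the widely spread controls all lay below the cGAMP libraries. Its log2 fold change was 0.46 (95% interval 0.07 to 0.85), with an edgeR adjusted p of 1. Rpa3 was the 1 gene of the 46 whose Tmem173-/- cGAMP libraries all lay above the Tmem173-/- controls, and Rfc2 the 1 below, where 3.20% and 3.44% of all tested genes did so. The median over the 46 genes was 0.02, and single genes lay between -0.17 for Gins1 and 0.49 for Mcm10. The half-widths of the 95% intervals had a median of 0.26 and reached 1.01 for Mcm10. Orc1 had a log2 fold change of 0.13 (95% interval -0.27 to 0.53) in these cells, Cdc6 of 0.07 (95% interval -0.81 to 0.94), Rrm2 of 0.18 (95% interval -0.51 to 0.87) and Mcm2 of -0.09 (95% interval -0.39 to 0.21).

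**Figure D3:**
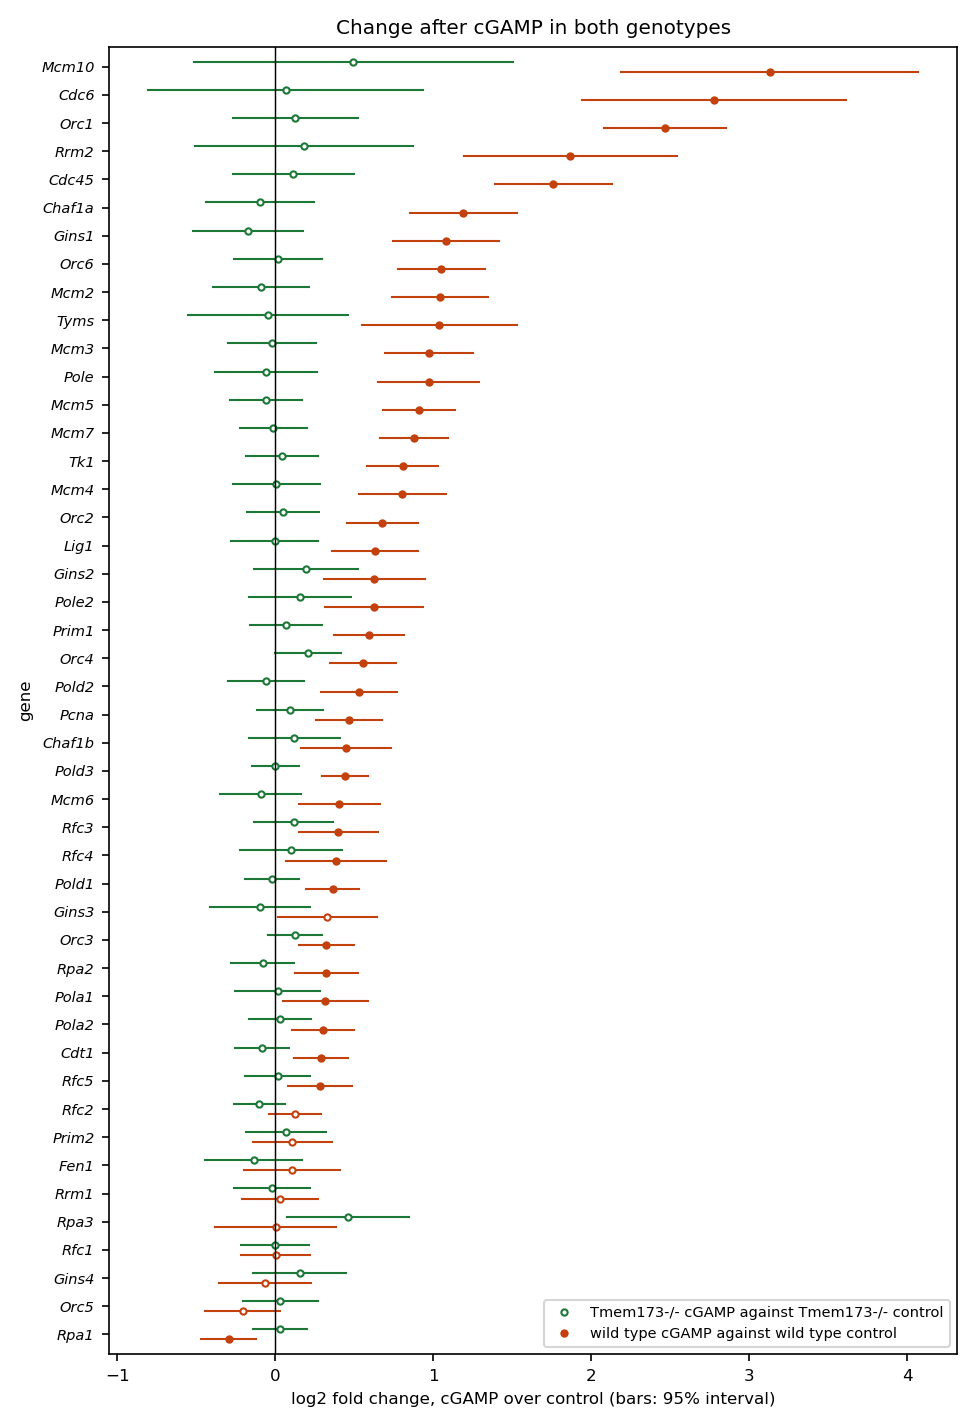
Log2 fold change of each of the 46 genes after cGAMP (horizontal axis) with its 95% interval, in Tmem173-/- cells (upper mark of each pair) and wild type cells (lower mark), where a filled mark passed the threshold. Tmem173-/- values gather around 0 with no filled mark, and wild type values run from -0.30 for Rpa1 to 3.13 for Mcm10.

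The difference between the responses was tested itself, as wild type minus Tmem173-/-, so that a positive value means a larger change in wild type cells. It was positive and past the threshold for 26 of the 46 genes and negative for 1, Rpa1, where 14.1% of all tested genes were positive and 17.5% negative (edgeR adjusted p under 0.05). Over all tested genes the split was 2037 positive and 2532 negative calls, which became 2494 and 2036 on log2(FPKM + 1). The median difference over the 46 genes was 0.44, and 11 of them differed at least 2-fold, against 4.77% of all tested genes. The largest differences were those of Cdc6 (2.71), Mcm10 (2.64), Orc1 (2.34), Rrm2 (1.69) and Cdc45 (1.64). With 1 library left out, that of Cdc6 ran over 2.37 to 3.45 and that of Mcm10 over 2.30 to 3.25, both highest without wild type control replicate 1. All 6 Mcm2 to Mcm7 genes passed, as did Cdt1, Pcna, Lig1, Tyms, Tk1 and 4 of the 5 genes of polymerases delta and epsilon, and no Rfc gene did. Some of these calls were lost under other settings. Over the 22 alternatives, Pcna (adjusted p = 0.0487 with edgeR) passed in 9, Mcm6 and Rpa2 in 13 each, Cdt1 in 17, Tyms in 19, Pold1 and Prim1 in 20 each, Pold2 in 21 and the other 18 positive calls in all 22. Leaving out both wild type replicate 1 libraries gave 20 positive and 0 negative calls, and leaving out replicate 1 of all 4 groups gave 18 positive and 1 negative. For Rpa1 the difference was -0.33 (SE 0.11, edgeR adjusted p = 0.0396), and it did not pass with library totals alone as the scaling, and of the 12 libraries it passed without Tmem173-/- cGAMP replicate 1, wild type cGAMP replicate 3 or wild type control replicate 2 and not without any other. It passed in 7 of the 22 alternatives.

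Without treatment the genotypes were not told apart on these genes. EdgeR called 0 of 46 between Tmem173-/- control and wild type control libraries, where 0% of all tested genes were called. At an unadjusted p under 0.05 it gave 5 of the 46 and 921 (6.36%) of all tested genes. DESeq2 called 4 of all tested genes, none of them among the 46, and limma-voom called 0. Those 5 were Gins2 (log2 fold change -0.57), Rpa3 (-0.47), Pole2 (-0.46), Gins4 (-0.32) and Rfc3 (-0.27), each with an edgeR adjusted p of 0.728. For 4 genes, Gins2, Pole2, Pold3 and Rfc3, all Tmem173-/- controls lay below all wild type controls, where 4.08% of all tested genes did so, and for 0 they lay above, where 5.01% did. Between the treated groups, 1 of the 46, Rpa1, was higher and 36 were lower in Tmem173-/- cGAMP than in wild type cGAMP libraries, where 24.9% of all tested genes were higher, 23.5% lower and 48.3% either. The groups did not overlap for 2 genes upward and 38 downward, where 29.7% and 29.2% of all tested genes did not. This comparison shares its wild type cGAMP libraries with the wild type response. The median log2 fold change was -0.57.

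The levels of the 46 genes spanned a wide range before treatment. On FPKM, wild type controls had 31 genes at 10 or more, 13 between 1 and 10, and 2 under 1, Cdc6 at 0.447 and Mcm10 at 0.922. Of the 31 most abundant, 24 rose and 1 fell, with a median log2 fold change of 0.41. In the middle range 10 of 13 rose, with a median of 0.63, and both genes under 1 rose. Of all tested genes, whatever their level, 22.4% were higher and 25.4% lower. The control level enters the fold change as well, so the axes of the plot of level and change are not independent. ORC shows how the levels shifted. In FPKM, Orc1 was its lowest member in wild type controls at 1.98, where the highest, Orc3, was 27.9-fold above it. In wild type cGAMP libraries Orc1 was at 11.6, Orc5 was lowest at 10.6, and the highest was 6.88-fold above the lowest. Tmem173-/- cGAMP and Tmem173-/- control libraries both had Orc1 lowest, at 2.37 and 2.18 FPKM.

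**Figure D4:**
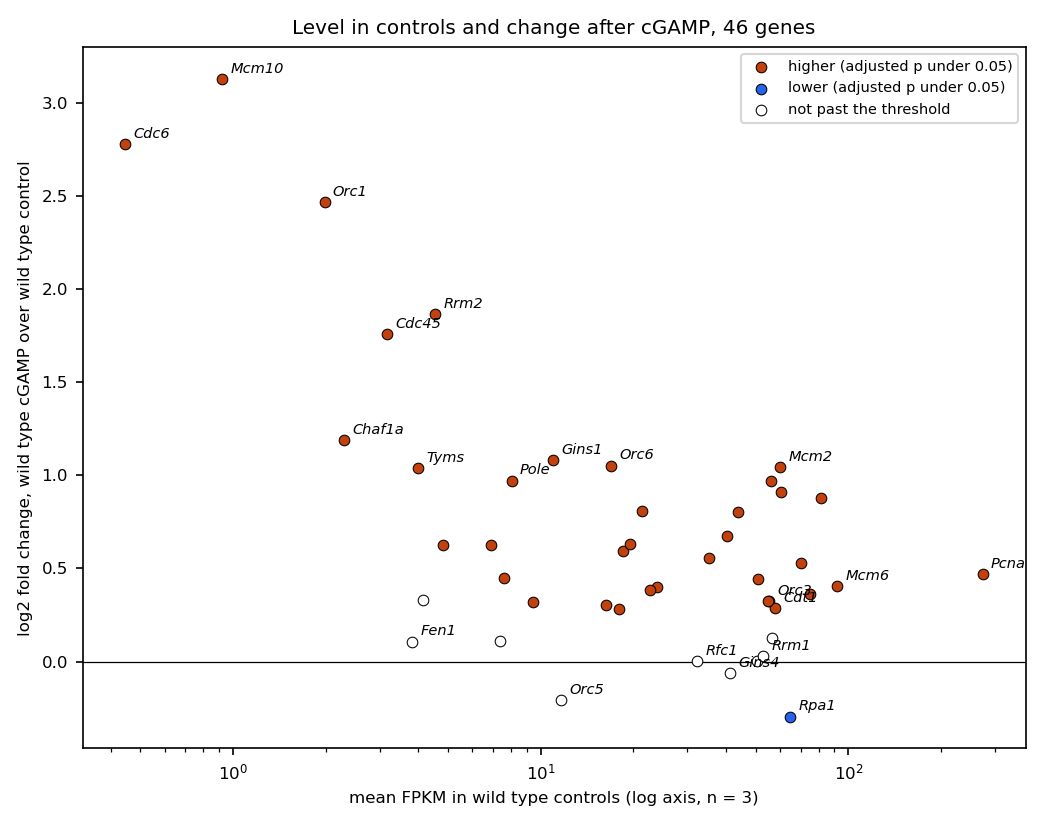
Mean FPKM of each gene in wild type controls (horizontal axis, log scale) against its log2 fold change in wild type cGAMP over wild type control (vertical axis), with a point per gene. The genes below 1 FPKM, Cdc6 and Mcm10, are at the top, and Pcna is at the far right with a change of 0.47.

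The replicates shared a pattern. For 32 of the 46 genes in Tmem173-/- cGAMP, 31 in Tmem173-/- control and 28 in wild type cGAMP, the highest of the 3 libraries was replicate 1, and in wild type control it was replicate 1 for 22 genes and replicate 3 for 23. The mean log2 CPM over the 46 genes was 4.85, 4.70 and 4.74 in Tmem173-/- cGAMP and 4.84, 4.70 and 4.64 in Tmem173-/- control, and 5.60, 5.40 and 5.53 in wild type cGAMP, against 4.92, 4.68 and 4.85 in wild type control. The 7 proliferation markers, none at 0 throughout, summed to 62.6, 39.2 and 41.9 CPM in Tmem173-/- cGAMP and 55.8, 49.0 and 37.4 CPM in Tmem173-/- control, and to 130.5, 81.2 and 112.6 CPM in wild type cGAMP, against 64.3, 34.2 and 37.3 CPM in wild type control. Replicate 1 was the highest of each group on this list too. Of the 7, 5 rose in wild type cells, where 22.4% of all tested genes were higher. Among them were Cdk1, the mitotic kinase, by 1.88 and Top2a, a topoisomerase, by 1.47 on the log2 scale. Mki67, the Ki-67 antigen, had a log2 fold change of 1.24 with an edgeR adjusted p of 0.082. Whether the share of dividing cells moved with the 46 genes was not tested.

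E2F proteins bind short sites in promoters, so the start of each gene was searched for them. The search covered 250 bases before to 50 after the start in RefSeq (GRCm38.p6), which had an entry for 39 of the 46 genes, and counted the core TTCCCGC, the form TTGGCGC, the form TTCGCGC and the form TTGCCGC on both strands, with overlapping matches counted. At least 1 match stood in 23 of the 39 windows (59.0%, exact binomial 95% interval 42.1 to 74.4), against 17.5% of the 9800 windows of tested genes and 11.4% of all 20480 windows. The CCAAT box, which is bound by NF-Y and is also common in promoters of cell cycle genes, stood in 61.5% of the 39 (exact binomial 95% interval 44.6 to 76.6), against 39.3% and 38.2%. The median GC content was 60.0% in the 39 windows, 60.7% in those of tested genes and 55.0% in all. Genes with and without a match rose about equally often. Of the 23 genes with a match 19 rose (median log2 fold change 0.41), and of the 16 without 13 rose (median 0.59). Among all tested genes, 30.3% with and 23.4% without a match rose. These are letters in a window, not sites shown to be bound, and RefSeq's start lies 539 bases from the deposited one for Mcm7, 350 for Cdc6 and 224 for Fen1.

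The 150 bases before the start of 5 genes are printed here, 5′ to 3′ on the gene's own strand, with E2F matches in capitals. They were picked with the responses known, as examples of matches beside unlike responses. Whether matches go with the response was not tested. Mcm6 held 4 matches here, in overlapping pairs, and rose by 0.41 on the log2 scale. Chaf1a held 2 and rose by 1.19, Orc1 held 1 and rose by 2.47, and Rrm1 held 1 at a log2 fold change of 0.03. Mcm10, with the largest rise, held none. Its whole window ends in the letters ttggcg, 1 base short of a form that was searched for.
Orc1, chr4:108579304-108579453, plus strand: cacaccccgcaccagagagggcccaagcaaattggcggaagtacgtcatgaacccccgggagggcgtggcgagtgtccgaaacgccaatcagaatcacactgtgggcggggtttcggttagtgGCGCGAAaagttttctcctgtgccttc
Chaf1a, chr17:56040266-56040415, plus strand: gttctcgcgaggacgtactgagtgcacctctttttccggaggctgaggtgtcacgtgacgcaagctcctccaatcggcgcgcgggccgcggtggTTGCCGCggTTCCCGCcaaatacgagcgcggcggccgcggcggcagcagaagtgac
Mcm6, chr1:128359706-128359855, minus strand: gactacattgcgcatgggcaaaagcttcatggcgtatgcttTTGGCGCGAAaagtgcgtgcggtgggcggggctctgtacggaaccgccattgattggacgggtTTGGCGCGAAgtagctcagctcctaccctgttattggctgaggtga
Mcm10, chr2:5012792-5012941, minus strand: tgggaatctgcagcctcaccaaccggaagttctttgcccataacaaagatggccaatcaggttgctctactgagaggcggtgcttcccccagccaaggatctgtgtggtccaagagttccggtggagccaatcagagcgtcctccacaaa
Rrm1, chr7:102441545-102441694, plus strand: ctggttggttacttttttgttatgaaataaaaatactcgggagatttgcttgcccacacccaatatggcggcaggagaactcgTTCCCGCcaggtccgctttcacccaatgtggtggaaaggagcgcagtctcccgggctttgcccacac

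**Figure D5:**
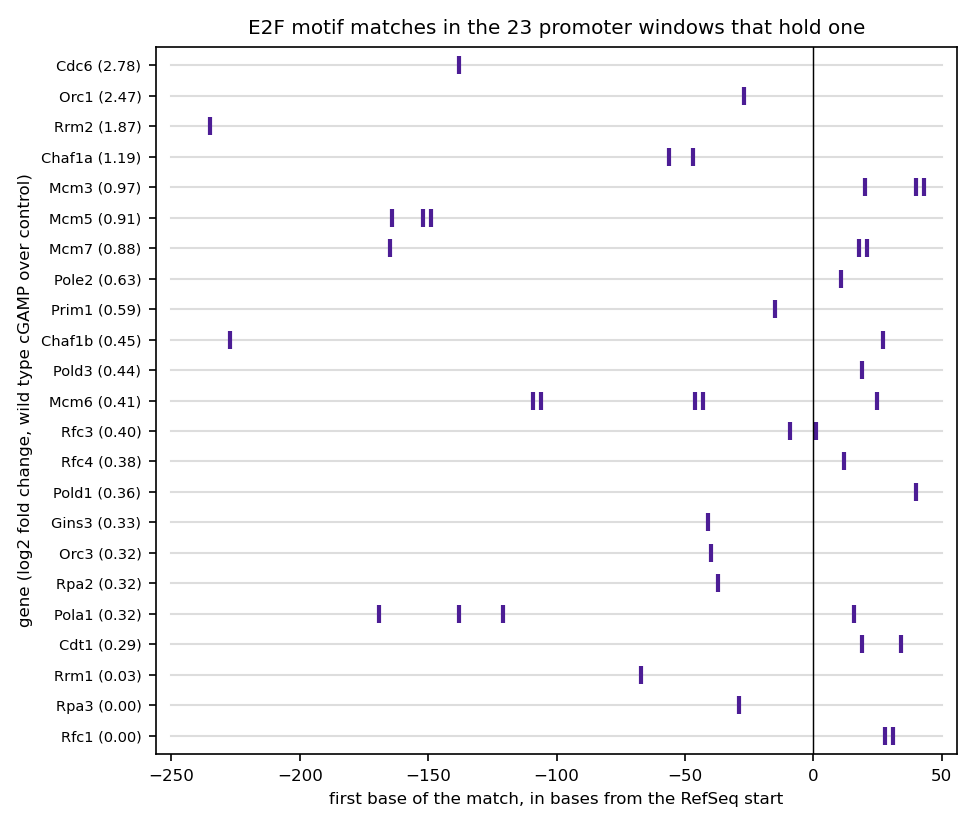
Position of each E2F match from the transcription start (horizontal axis, bases) in the 23 of 39 promoter windows that held at least 1 (rows, labelled with the log2 fold change in wild type cells, a mark per match). Mcm6 has the most marks, 5 in the whole window, and Orc1 has 1 shortly before the start.

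The genes that E2F acts with were read from their own list. Of 13 E2F and RB family genes, 9 rose, 3 fell and 1 did not pass in wild type cells (median log2 fold change 0.56), where 22.4% of all tested genes were higher and 25.4% lower, so the share that fell is near that of all genes. E2f1, an activator of S phase genes, was at 6.21, 4.69 and 5.64 CPM in Tmem173-/- cGAMP and 5.82, 4.43 and 4.30 CPM in Tmem173-/- control, and at 21.5, 17.8 and 21.2 CPM in wild type cGAMP, against 9.58, 5.98 and 6.18 CPM in wild type control. The wild type cGAMP libraries were above every other, and the log2 fold change was 1.48 (SE 0.18, edgeR adjusted p = 7.43e-06). E2f8 and E2f7, repressors that are themselves E2F targets, rose by 2.71 and 2.10 on the log2 scale from low levels. E2f8 averaged 3.57 ± 1.42 CPM in wild type cGAMP and 0.543 ± 0.263 CPM in wild type control libraries (SD, n = 3 each). Those that fell were Tfdp2, a dimer partner of E2F, by 1.10, and the RB family genes Rbl2 and Rb1, by 1.00 and 0.85 on the log2 scale, while the family member Rbl1 rose by 0.70.

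Of 32 further replication factors, none among the 46, 22 rose, 2 fell and 8 did not pass in wild type cells (median log2 fold change 0.59), where 22.4% of all tested genes were higher and 25.4% lower. Clspn, encoding the checkpoint adaptor claspin, was at 2.42, 0.898 and 0.951 CPM in Tmem173-/- cGAMP and 1.93, 1.78 and 0.985 CPM in Tmem173-/- control, and at 11.02, 5.81 and 8.54 CPM in wild type cGAMP, against 1.82, 0.844 and 0.918 CPM in wild type control. Its change was a log2 fold change of 2.82 (edgeR adjusted p = 4.24e-05). Dscc1, part of an alternative clamp loader, rose by 1.75, and Ticrr, which helps Cdc45 join the helicase, by 1.59 on the log2 scale. Pold4 was the largest change downward. This small accessory subunit of polymerase delta was at 139, 151 and 149 CPM in Tmem173-/- cGAMP and 156, 153 and 124 CPM in Tmem173-/- control, and at 40.7, 50.1 and 43.5 CPM in wild type cGAMP, against 128, 154 and 162 CPM in wild type control. It fell by 1.72 on the log2 scale (SE 0.11, edgeR adjusted p = 1.07e-08), while the genes of the 3 other delta subunits rose.

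Of 19 further enzymes of deoxynucleotide and pyrimidine synthesis, 11 rose, 4 fell and 4 did not pass in wild type cells (median log2 fold change 0.40), where 22.4% of all tested genes were higher and 25.4% lower, so here too the share that fell is near that of all genes. Ctps, a CTP synthetase, rose by 1.28, and Ctps2, its paralogue, fell by 1.21 on the log2 scale. Ctps averaged 129.7 ± 8.53 CPM in wild type cGAMP and 53.4 ± 11.03 CPM in wild type control, and Ctps2 averaged 38.5 ± 2.45 and 89.3 ± 4.63 CPM in the same groups (SD, n = 3 each). Shmt1, an enzyme of the folate cycle that feeds thymidylate synthase, rose by 0.99 on the log2 scale. Rrm2b, the p53-inducible alternative to Rrm2, was at 33.7, 39.6 and 31.7 CPM in Tmem173-/- cGAMP and 34.1, 34.1 and 34.1 CPM in Tmem173-/- control, and at 22.9, 23.1 and 26.7 CPM in wild type cGAMP, against 31.3, 33.8 and 36.03 CPM in wild type control. It fell by 0.47 on the log2 scale (edgeR adjusted p = 0.00109), with no overlap between the wild type groups. Samhd1, which degrades deoxynucleotides, missed the threshold (log2 fold change 0.17, edgeR adjusted p = 0.217). Of 14 purine synthesis enzymes 7 rose, 1 fell and 6 did not pass (median log2 fold change 0.28), beside the same shares of all genes, and 5 rose without both wild type replicate 1 libraries. Ppat, the first committed enzyme, rose by 0.73, Pfas by 0.69 and Impdh1, an enzyme of guanine nucleotide synthesis, by 0.51, while Prps2, which makes the sugar phosphate precursor, fell by 0.61 on the log2 scale. On each of these 4 lists edgeR called 0 genes in Tmem173-/- cells and 0 between the control groups, where 0% of all tested genes were called.

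For 16 of the 46 genes the annotation places another gene with at least 100 counts on the same stretch, in 15 cases on the opposite strand. Whether reads were counted by strand is not given in the sources used here, so reads of such pairs cannot be told apart. Cdc45 overlaps Ufd1, which rose by 0.43 on the log2 scale against 1.76 for Cdc45. Orc6 overlaps Vps35 (log2 fold change -0.07), Chaf1a overlaps Ubxn6 (-0.14) and Mcm7 overlaps Cops6 (-0.14) and Ap4m1 (0.41), none of which passed the test. Ap4m1 was near the threshold (edgeR adjusted p = 0.0762). Orc2 overlaps Nif3l1 (0.30) and, on its own strand, Gm23966 (1.63, with 157 counts), both of which were higher in wild type cGAMP. Rfc4, near the threshold at 0.38, overlaps Eif4a2, which holds far more counts and rose by 0.51 on the log2 scale. Rfc5 overlaps Wsb2 (-0.41) and Rfc2 overlaps Lat2 (-0.51), both of which were lower in wild type cGAMP. Also lower were Gse1 (-0.33), which overlaps Gins2 and holds 18795 counts against 3630, and Mbd5 (-0.30), which overlaps Orc4. Acvr2a, which overlaps Orc4 too, did not pass (-0.03). Fen1 overlaps Gm10143 (1.90, with 201 counts), which rose, and Tmem258 (-0.07), which did not pass. The overlapping genes of Lig1, Orc1, Orc5, Pole and Tk1 with at least 100 counts did not pass.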

How the data were processed

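The deposited values are raw counts of fragments per gene and FPKM, both made by the authors for the same 12 libraries; per the submitters' processing notes, fastp, STAR, featureCounts and GRCm38 (mm10) were used, with versions and strand setting not given in the sources used here. Per the labels, libraries were poly-T selected and made with a NEBNext Ultra kit from B cells sorted from 3 mice per genotype. The second deposited count table held identical values. Counts of 14473 genes that passed filterByExpr (minimum count 10) were fitted with edgeR 4.0.16 in R 4.3.3 (TMM scaling, robust quasi-likelihood, 1 mean for each of the 4 groups), a script first tested on simulated data. The 5 comparisons were each adjusted by the Benjamini-Hochberg method over all tested genes, with a threshold of 0.05. SE is the absolute log2 fold change divided by the square root of F. Values in CPM are counts divided by the TMM-scaled library size. Deposited FPKM, which carry no TMM scaling, were used to compare levels between genes and as an alternative, and some are printed by group. For Cdc6, Mcm10, Orc1 and Pcna, the length implied by CPM and FPKM is not the deposited gene length. Comparisons between genes in FPKM therefore rest on a length not stated here. Alternatives were median-of-ratios or library-total scaling, no filter, DESeq2 1.42.0, limma-voom (limma 3.58.1), log2(FPKM + 1) and log2(FPKM + 0.1), only the groups compared, a replicate block, each library left out in turn, both wild type replicate 1 libraries left out and, added after the data were seen, all 4 replicate 1 libraries left out. Genes given in every library were the 12 largest rises and the 1 fall in wild type cells, any past the threshold in Tmem173-/- cells or between controls (there were none), and Mcm2, Pcna, Rrm1, Rrm2, Tyms, Orc1, Cdc6 and Cdt1; on the other lists, the 4 largest changes past the threshold, with further genes named after their values were seen; 1 of these and 1 marker list are not reported here. The 46 genes, the lists and the tests were chosen with earlier results of these data known. Libraries held 26490593 to 31417833 counts. Intervals on shares of promoters cover counting error only.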

Additional observations from a re-analysis of the deposited data

Results flagged for a closer look

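The responses to cGAMP differed between the genotypes, by a test of the difference itself, for 27 of the 46 genes, where 31.6% of all tested genes differed. In this test (edgeR, adjusted p under 0.05) the difference is the log2 fold change in wild type cells minus that in Tmem173-/- cells. It was positive for 26 genes and negative for 1, where 14.1% of all tested genes were positive and 17.5% negative. Without both wild type replicate 1 libraries the counts were 20 and 0. Among the genes given in every library, it was 2.71 for Cdc6, 2.64 for Mcm10, 2.34 for Orc1, 1.69 for Rrm2, 1.64 for Cdc45, 1.29 for Chaf1a, 1.25 for Gins1, 1.13 for Mcm2, 1.09 for Tyms, 1.04 for Orc6, 1.03 for Pole, 0.99 for Mcm3, 0.38 for Pcna, 0.37 for Cdt1 and -0.33 for Rpa1, all past the threshold, and 0.05 for Rrm1, which was not. Over 22 alternatives Pcna passed in 9 and Rpa1 in 7.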

How the results depend on the processing

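Of the 36 genes that rose in wild type cells, 28 passed under all 17 alternatives run for that comparison, and 18 of the 26 with a larger response in wild type cells passed under all 22 run for the difference. In wild type cells the higher count was 35 to 38 under the other scalings, tools and filters, 31 to 35 with 1 library left out, and 32 without both wild type replicate 1 libraries or all 4 replicate 1 libraries; Rpa1 was the 1 lower gene throughout. Calls lost with 1 wild type library left out were Mcm6, Pola1, Pola2 and Rpa2 without cGAMP replicate 1, Rfc3 and Rfc4 without cGAMP replicate 2, Pola1, Rfc4 and Rfc5 without cGAMP replicate 3, Rfc4 and Rfc5 without control replicate 1, Chaf1b, Pola1, Pola2, Rfc4 and Rfc5 without control replicate 2 and Pola1 without control replicate 3. The negative difference count was 0 with library totals alone, log2(FPKM + 1), log2(FPKM + 0.1) and without both wild type replicate 1 libraries, and 0 to 1 with 1 library left out. Where it was 1 with no filter, without Tmem173-/- control replicate 1 and without all 4 replicate 1 libraries, the gene was Rpa3 (-0.46, -0.71 and -0.69), not Rpa1. Between control groups, 1 of the 46 was lower in Tmem173-/- with no filter, again Rpa3 (-0.46, edgeR adjusted p = 0.0147), where 32 of 26792 genes were higher and 119 lower; without both wild type replicate 1 libraries 4 genes were higher and 1 lower, and without all 4 replicate 1 libraries 6 and 7, none among the 46. With no filter 10 genes were higher and 13 lower in Tmem173-/- cGAMP than in Tmem173-/- control, none among the 46. Between treated groups, 1 to 2 were higher in Tmem173-/- with 1 library left out (Orc5 at 0.33 without wild type cGAMP replicate 1). Genes near 0 in wild type cells changed sign. Gins4 was 0.013 with library totals alone, 0.012 on log2(FPKM + 1) and 0.013 on log2(FPKM + 0.1), and -0.159 to 0.0856 with 1 library left out. Rfc1 was -0.00087 with no filter, -0.0046 with limma-voom, -0.0041 with the replicate block and -0.0097 without both wild type, or all 4, replicate 1 libraries, and -0.0668 to 0.108 with 1 left out. Rpa3 was -0.0020 with limma-voom and -0.0027 with the replicate block, and -0.133 to 0.0863 with 1 left out, and Rrm1 was -0.0529 to 0.171. With 1 library left out, the wild type changes of Mcm10 and Cdc6, both low in the controls, ran over 2.79 to 3.74 and 2.44 to 3.51, and on log2(FPKM + 1), which understates low genes, they were 2.31 and 1.52. The cause of these moves was not tested. Replicate numbers are shared by the groups. To look for pairing, the group mean of log2 CPM was subtracted gene by gene, and these deviations were correlated between libraries over all tested genes. On the deviations, each library correlated best with its own number within its genotype. The deviations of same-numbered libraries correlated at 0.288, 0.0958 and 0.170 in Tmem173-/- and 0.300, 0.218 and 0.0834 in wild type cells. The samples may therefore be paired by number, but the labels do not state it, and the main fit did not use it. With the replicate block, 36 of the 46 were higher and 1 lower in wild type cells, the difference count was 27 and 1, and calls over all tested genes in wild type cells were 3699 higher and 4050 lower, against 3238 and 3683 without it.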
